A study of Mus musculus with 9 samples.

Results

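The mRNAs of the 10 cyclins of the A, B, D and E families were followed from spermatogonia into meiosis, with and without retinoic acid (RA), in mouse testes with synchronized spermatogenesis. The genes were taken by name (Ccna1, Ccna2, Ccnb1, Ccnb2, Ccnb3, Ccnd1, Ccnd2, Ccnd3, Ccne1 and Ccne2) and are 10 of the 24505 genes counted. All 10 passed the filter on low counts in each of the 3 comparisons made. Ccna1 and Ccnb3 are treated here as the germline cyclins, Ccna2, Ccnb1 and Ccnb2 as the mitotic A and B cyclins, and the D and E cyclins as a class each. There were 3 libraries of In/B (intermediate and type B) spermatogonia, taken at P17, and 3 each of preleptotene (PL) spermatocytes from RA-sufficient and from RA-deficient testes, both taken at P19. The cells were gated by EGFP from Uchl1-eGfp mice, originally C57BL/6 and outcrossed to CD-1. The transgene carries the promoter of Uchl1, and its signal is bright in spermatogonia and dim once cells become PL spermatocytes. Cells of several pups were pooled. To synchronize the testes, every animal had been dosed orally from P1 with WIN 18,446, a blocker of RA synthesis (100 µg per g of body weight), and had then been injected once, at P11, with RA (10 µl of a 10 µg per µl solution). In the RA-deficient group WIN 18,446 was continued daily until the cells were collected, so these cells too had received the RA of P11. In the RA-sufficient group it was stopped at the injection. The study's methods count the P17 testes among the RA-sufficient ones, which were given no compound after the injection.

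Cyclins are the regulatory subunits of cyclin-dependent kinases (CDKs), and most are grouped by the part of the cell cycle in which they act. D cyclins bind Cdk4 and Cdk6 in G1 and couple growth signals to the inactivation of the retinoblastoma protein, E cyclins bind Cdk2 at the start of S phase, A cyclins act in S phase and G2, and B cyclins bind Cdk1 and drive entry into division. Preleptotene spermatocytes carry out the last S phase before meiosis and then stay in a long prophase. The testis also makes cyclins of its own: Ccna1 is restricted largely to the male germ line and is needed for the meiotic divisions of spermatocytes, and Ccnb3 is transcribed in early meiotic prophase.

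Values are CPM, counts for each 1000000 counts of the library, scaled between libraries by the trimmed mean of M values (TMM), or CPM per kb of exon where genes are compared with each other. Total counts were 12612959 to 27042274 per library, at which 3 counts were worth 0.113 to 0.221 CPM. The RA-deficient group had the highest median total, 26889781, and a lowest total of 25048240, which was below that of In/B replicate 2 (26684393). Yet 14769 to 15327 genes had a count in the RA-deficient libraries, against 16758 to 18434 in the other 6. RA-deficient PL replicate 3 stood apart from replicates 1 and 2, with root-mean-square differences of log2 CPM of up to 0.88 against 0.371 between those replicates, so results that rest on it are given with and without it. The labelled identities were met in part by marker genes. All 8 meiotic entry markers were called higher (rule given below) in both PL groups against In/B, beside 26.1% (RA-sufficient) and 11.4% (RA-deficient) of all genes. Of 6 markers of differentiating spermatogonia, 5 were called lower in RA-sufficient PL (19.3% of all genes). In RA-deficient PL 1 was called lower and 1 higher. Their summed level was 3640 to 5330 CPM in In/B, 750 to 848 CPM in RA-sufficient PL, and 3110, 3230 and 1310 CPM in RA-deficient PL replicates 1, 2 and 3. The sum of 8 markers of undifferentiated spermatogonia was 245 to 443, 164 to 250 and 289 to 400 CPM in In/B, RA-sufficient and RA-deficient PL. Transcripts of other cells were also present. The 11 Sertoli cell markers counted summed to 73.8 to 389 CPM in In/B, 3240 to 4250 CPM in RA-sufficient PL and 323 to 567 CPM in RA-deficient PL, none of them at 0 in any whole group. In bulk libraries, fewer cells of a type and less RNA per cell cannot be told apart. RNA was isolated, according to the study's methods, from independent cell preparations, and by their wording these may be fewer than the libraries of a group. The labels do not tie a preparation to a library, so p-values and standard errors measure the spread between these libraries, which may not all be independent. Each group held a pair closer than its other pairs. The root-mean-square difference was 0.205 between In/B replicates 2 and 3 (0.518 and 0.544 in the other pairs). It was 0.232 between RA-sufficient PL replicates 2 and 3 (0.476 and 0.527 in the others), and RA-deficient PL replicates 1 and 2 are given above. Whether such pairs shared a preparation was not tested.

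The promoters of the mitotic B cyclins and of the germline cyclins are shown because Ccnb1 and Ccnb2 fell in PL cells, the latter past the required fold in RA-deficient PL alone, while Ccna1 or Ccnb3 rose. RefSeq promoter entries on GRCm38.p6, from 250 bases before to 50 after a transcription start, were at hand for 6 of the 10 cyclins, namely Ccna1, Ccnb1, Ccnb2, Ccnb3, Ccnd3 and Ccne1, and not for Ccna2, Ccnd1, Ccnd2 and Ccne2. The stretch from 130 bases before to 20 after the start is printed 5′ to 3′ on the gene's strand, which is the minus strand for all 4 genes, with CCAAT (or its complement ATTGG) and TTTGAA in capitals. The windows are chr9:70421535-70421684 for Ccnb2, chr13:100786467-100786616 for Ccnb1, chr3:55055036-55055185 for Ccna1 and chrX:7041600-7041749 for Ccnb3.
Ccnb2: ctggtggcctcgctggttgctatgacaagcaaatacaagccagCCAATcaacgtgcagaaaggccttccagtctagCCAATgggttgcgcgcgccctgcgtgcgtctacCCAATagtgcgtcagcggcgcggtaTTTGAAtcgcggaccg
Ccnb1: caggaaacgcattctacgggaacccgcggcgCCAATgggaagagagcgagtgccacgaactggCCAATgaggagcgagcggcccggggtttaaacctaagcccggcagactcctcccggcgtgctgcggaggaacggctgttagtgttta
Ccna1: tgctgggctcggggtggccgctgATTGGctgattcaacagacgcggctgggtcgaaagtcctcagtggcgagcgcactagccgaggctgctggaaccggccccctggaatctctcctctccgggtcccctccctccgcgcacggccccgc
Ccnb3: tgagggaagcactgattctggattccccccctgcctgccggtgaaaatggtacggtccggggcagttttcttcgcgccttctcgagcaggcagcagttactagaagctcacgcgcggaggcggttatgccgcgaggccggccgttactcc

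CCAAT boxes followed by the cell cycle element TTTGAA are known from promoters of genes switched on before mitosis, where the NF-Y and MuvB complexes bind. The Ccnb2 window held 3 CCAAT motifs at positions -87, -54 and -21 from the start, each 33 bases from the next, and TTTGAA at position 5. A further TTTGAA lay at -167 of the whole Ccnb2 entry. Ccnb1 held 2 CCAAT motifs 32 bases apart, at -99 and -67, and no TTTGAA. The cell cycle element was searched in these exact letters only, so other forms of it were not looked for. Ccna1 held a single CCAAT at -107, read on the opposite strand, and Ccnb3 held neither motif. A Ccnd3 entry held CCAAT at -108, and the other Ccnd3 entry and that of Ccne1 held neither motif. On both strands of all 32851 promoter entries of 300 bases, CCAAT occurred in 37.4%, at least 2 times in 11.7% and at least 3 times in 3.37%, and TTTGAA in 17.9%. A further 3 motifs were searched, TTTNNCGC for E2F (5.17% of promoters), AACNGTT for MYB (4.45%) and, for RA receptors, the direct repeat of AGGTCA with 5 bases between its copies (0.00913%), and none of the cyclin entries held one. A match describes these letters in this window and is not a binding site.

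Ccna1, the germline A cyclin (chromosome 3, 54849391 to 54858977, minus strand, mm9), was high in RA-sufficient PL and undetected in 2 of 3 RA-deficient libraries. In In/B it was at 2.46, 2.23 and 3.79 CPM in replicates 1, 2 and 3, in RA-sufficient PL at 38.9, 26.0 and 20.2 CPM, and in RA-deficient PL at 0, 0 and 6.30 CPM. Every RA-sufficient library was above every other library, and RA-deficient replicates 1 and 2 had no count at all in totals of 26889781 and 27042274. Ccna1 rose by 3.39 ± 0.35 (SE) on the log2 scale from In/B to RA-sufficient PL, with an adjusted p of 6.91e-05 by the quasi-likelihood test of edgeR, adjusted over all genes by Benjamini and Hochberg's method (n = 3 libraries per group, as in each comparison that follows). In a single fit of all 9 libraries this call was lost (edgeR adjusted p = 0.0724). A gene was called where its log2 fold change passed 1 in either direction with an adjusted p under 0.05. Ccna1 was not called between RA-deficient PL and In/B (log2 fold change -0.27 ± 1.75, edgeR adjusted p = 0.924) or RA-sufficient PL (-3.78 ± 1.68, edgeR adjusted p = 0.146), although the RA-deficient and RA-sufficient libraries did not overlap. Without RA-deficient replicate 3 it was called lower in both comparisons (edgeR adjusted p = 0.00177 and 0.000209). Taking 3 counts per library as the floor for the libraries at 0, Ccna1 was there at least 23.7-fold lower than the In/B mean and at least 238-fold lower than the RA-sufficient mean.

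Markers of later germ cells ran alongside Ccna1 within the PL groups. The summed level of 9 markers of later spermatocytes and spermatids was 32.0 to 82.4 CPM in In/B, 868, 257 and 227 CPM in RA-sufficient PL replicates 1, 2 and 3, and 4.76, 8.88 and 137 CPM in RA-deficient PL replicates 1, 2 and 3, with Hist1h1t, Tnp1 and Prm2 at 0 in all 3 RA-deficient libraries. In each PL group the library with the highest sum also had the highest Ccna1. This did not hold in In/B, where replicate 2 had the highest sum (82.4 CPM) and the lowest Ccna1 (2.23 CPM). Their part in the Ccna1 values was not tested.

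Ccnb3, the germline B cyclin (chromosome X, 6556778 to 6618745, minus strand), rose in both PL groups. It was at 27.0, 54.2 and 52.6 CPM in In/B, 141, 346 and 361 CPM in RA-sufficient PL and 217, 200 and 541 CPM in RA-deficient PL. All 6 PL libraries were above all In/B libraries, and the PL groups overlapped. The log2 fold change from In/B was 2.72 ± 0.39 in RA-sufficient PL (edgeR adjusted p = 0.000356) and 3.01 ± 0.44 in RA-deficient PL (edgeR adjusted p = 0.00153), a rise of 6.6-fold and 8.06-fold. These comparisons share the In/B libraries. Between the PL groups the log2 difference was 0.18 ± 0.46 (edgeR adjusted p = 0.8), and without RA-deficient replicate 3, the highest library, it was -0.43 (edgeR adjusted p = 0.371), so no direction can be given. The rise of Ccnb3 from In/B to RA-deficient PL was 2.40 without that library (edgeR adjusted p = 0.000224).

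**Figure D1:**
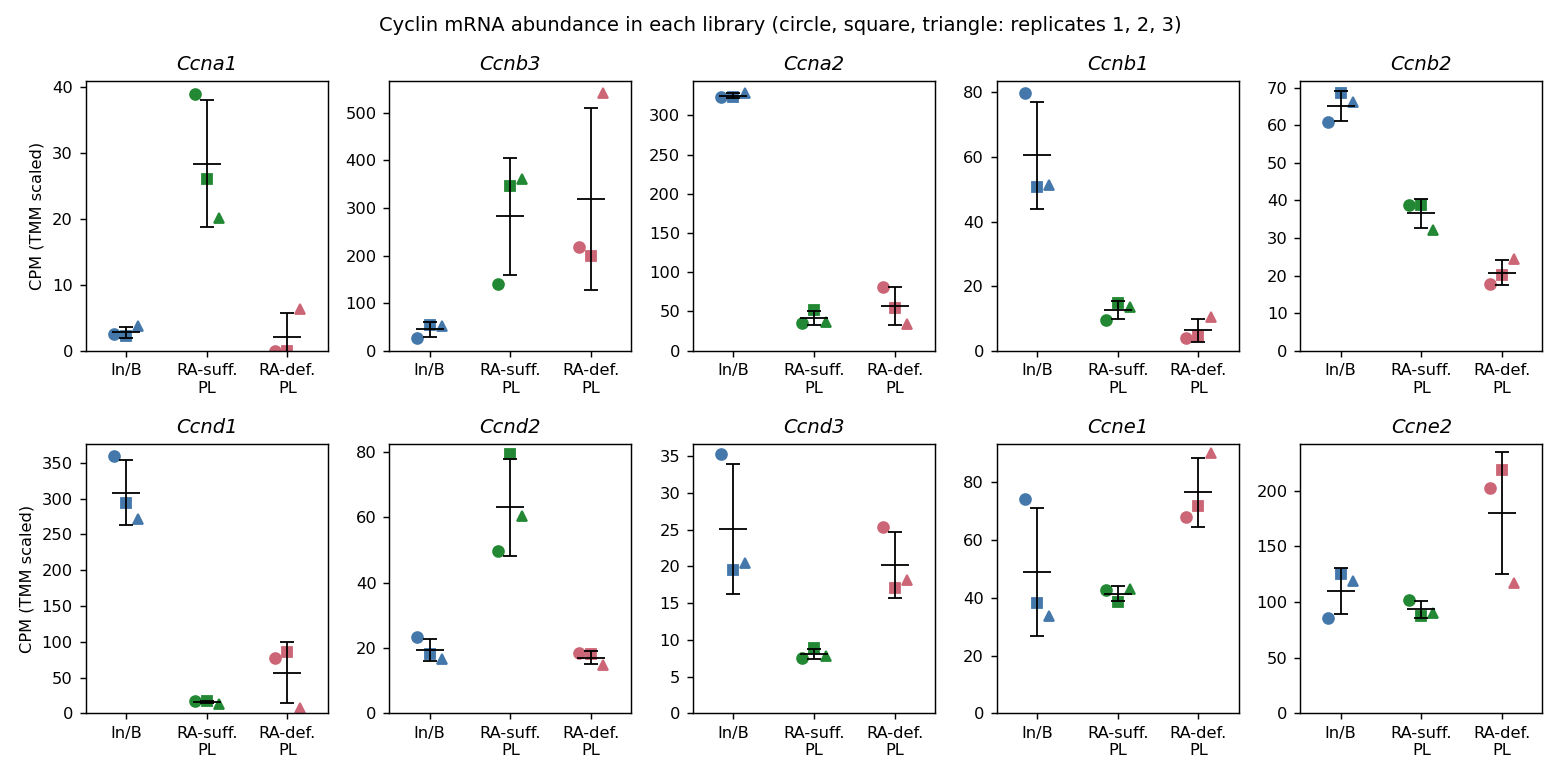
TMM-scaled CPM of each of the 10 cyclins (vertical axes, each from 0 to its own maximum) in the 9 libraries, by group; symbols mark replicates 1, 2 and 3, and bars give the mean ± SD of 3 libraries. Ccna1 is high in RA-sufficient PL alone, Ccnb3 is high in both PL groups, Ccna2, Ccnb1 and Ccnd1 are highest in In/B, and RA-deficient replicate 3 (triangle) lies apart for Ccna1, Ccnb3, Ccnd1 and Ccne2.

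The mitotic A and B cyclins were lower in every PL library than in any In/B library. Ccna2 (chromosome 3, 36463788 to 36471072, minus strand), the A cyclin of dividing somatic cells, was at 323, 323 and 329 CPM in In/B, 35.9, 51.4 and 36.3 CPM in RA-sufficient PL and 81.8, 54.6 and 34.0 CPM in RA-deficient PL. Each PL library lay below each In/B library, and the PL groups overlapped. Ccna2 fell by 2.92 ± 0.16 on the log2 scale in RA-sufficient PL (7.59-fold, edgeR adjusted p = 1.1e-05) and by a log2 fold change of -2.35 ± 0.29 in RA-deficient PL (5.1-fold, edgeR adjusted p = 0.000671), both against the same In/B libraries. RA-deficient and RA-sufficient PL differed by 0.46 ± 0.33 on the log2 scale (edgeR adjusted p = 0.346), and it was 0.73 without RA-deficient replicate 3 (edgeR adjusted p = 0.0416), still short of the fold required. Ccna2 shares 512 bp of exon with Exosc9 on the other strand. As the use of strand in counting is not given in the sources used here, reads of the pair may not be separable, and Exosc9 was at 40.8 ± 4.41 CPM in In/B, 40.3 ± 3.96 CPM in RA-sufficient PL and 42.6 ± 8.30 CPM in RA-deficient PL (SD, n = 3).

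Ccnb1 (chromosome 13, 101548605 to 101556525, minus strand), the B cyclin that carries Cdk1 into mitosis, was at 79.7, 50.6 and 51.3 CPM in In/B, 9.57, 14.7 and 13.6 CPM in RA-sufficient PL and 3.96, 4.48 and 10.4 CPM in RA-deficient PL. The PL libraries were all below In/B, and RA-deficient replicate 3 alone reached into the RA-sufficient range. Ccnb1 fell by 2.21 ± 0.26 on the log2 scale in RA-sufficient PL (edgeR adjusted p = 0.000132) and by a log2 fold change of -3.11 ± 0.42 in RA-deficient PL (edgeR adjusted p = 0.00103). The difference between the PL groups was -1.01 ± 0.45 (edgeR adjusted p = 0.144), and without RA-deficient replicate 3 it was -1.57 and called (edgeR adjusted p = 0.00892). The level of Ccnb1 is uncertain, since 1902 of the 2489 bases of its longest coding transcript (76.4%) have a copy elsewhere in mm9 at 96% identity or more, where the annotation places Gm12856 and Gm5593, and neither of these is in the count table. No such copy was found for the other 9 cyclins.

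Ccnb2 (chromosome 9, 70255496 to 70269361, minus strand), the second mitotic B cyclin, had the smallest changes from In/B of the 3. Its levels were 60.8, 68.7 and 66.2 CPM in In/B, 38.9, 38.7 and 32.2 CPM in RA-sufficient PL and 17.7, 20.2 and 24.5 CPM in RA-deficient PL. The 3 groups were in 3 separate ranges, with RA-deficient PL at the bottom. The log2 fold change from In/B was -0.78 ± 0.14 in RA-sufficient PL (edgeR adjusted p = 0.0015), short of the fold required for a call, and Ccnb2 fell by 1.48 ± 0.18 in RA-deficient PL (edgeR adjusted p = 0.00071). The difference between the PL groups of -0.82 ± 0.22 (edgeR adjusted p = 0.0355) was likewise past the p threshold and short of the fold, and with the replicate number as a block its adjusted p was 0.0846 (edgeR).

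The D cyclins did not move as a class. Ccnd1 (chromosome 7, 152115836 to 152125774, minus strand), the D cyclin most often tied to growth signals, was at 359, 294 and 272 CPM in In/B, 17, 16.9 and 13.7 CPM in RA-sufficient PL and 76.9, 86.4 and 8.04 CPM in RA-deficient PL. All PL libraries were below In/B, RA-deficient replicates 1 and 2 were above RA-sufficient PL, and RA-deficient replicate 3 was the lowest of all. Ccnd1 fell by 4.23 ± 0.17 on the log2 scale in RA-sufficient PL (18.8-fold, edgeR adjusted p = 1.03e-05), the largest change of any of the 10 cyclins in that comparison. It fell by 2.26 ± 0.69 in RA-deficient PL (edgeR adjusted p = 0.0352), a call lost when any library other than RA-deficient replicate 3 was left out (edgeR adjusted p of 0.0547 to 0.109) and kept without that replicate (-1.75, edgeR adjusted p = 0.000101). RA-deficient differed from RA-sufficient PL by 1.85 ± 0.74 (edgeR adjusted p = 0.112), a difference that DESeq2 called (1.83, adjusted p = 0.0141), and without RA-deficient replicate 3 it was 2.37 and called by edgeR (adjusted p = 0.000187). Ccnd1 shares 818 bp of exon with Oraov1 on the other strand, which was at 26.3 ± 4.15, 34.3 ± 9.05 and 21.6 ± 4.28 CPM in In/B, RA-sufficient PL and RA-deficient PL (SD, n = 3).

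The summed markers of differentiating spermatogonia given above, led by Uchl1, ran in the same order as Ccnd1 over the groups. RA-deficient replicate 3 was the lowest RA-deficient library in both. Its marker sum, 1310 CPM, was nonetheless above every RA-sufficient library (750 to 848 CPM). Its Ccnd1, 8.04 CPM, was below all of them (13.7 to 17 CPM). Of those 6 markers 5 were called higher in RA-deficient than in RA-sufficient PL, beside 4.47% of all genes. The part of these markers in the Ccnd1 values was not tested.

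Ccnd2 (chromosome 6, 127075797 to 127101066, minus strand), a D cyclin known both from spermatogonia and from the supporting cells of the gonad, was high in RA-sufficient PL. It was at 23.3, 18.3 and 16.5 CPM in In/B, 49.8, 79.3 and 60.3 CPM in RA-sufficient PL and 18.4, 18.2 and 14.8 CPM in RA-deficient PL. No RA-sufficient library overlapped another group, while In/B and RA-deficient PL overlapped. Ccnd2 rose by 1.76 ± 0.22 on the log2 scale from In/B to RA-sufficient PL (edgeR adjusted p = 0.000202) and differed by -1.88 ± 0.22 between RA-deficient and RA-sufficient PL (lower in the former, edgeR adjusted p = 0.00242). Against In/B the RA-deficient difference was -0.01 ± 0.24 (edgeR adjusted p = 0.978). Sertoli cell markers followed the same pattern over the groups. In RA-sufficient PL against In/B 11 of 11 were called higher, beside 26.1% of all genes. In RA-deficient against RA-sufficient PL 11 of 11 were called lower, beside 11% of all genes. Clu, the most abundant, was at 152 CPM in In/B, 2090 CPM in RA-sufficient PL and 250 CPM in RA-deficient PL. Within the groups this likeness did not hold. In each, the library with the highest Ccnd2 had the lowest Sertoli sum (73.8 CPM in In/B, 3240 CPM in RA-sufficient PL and 323 CPM in RA-deficient PL). The part of these markers in the Ccnd2 values was not tested.

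Ccnd3 (chromosome 17, 47642000 to 47736632, plus strand), the third D cyclin, went the other way. It was at 35.3, 19.5 and 20.4 CPM in In/B, 7.58, 8.85 and 7.81 CPM in RA-sufficient PL and 25.4, 17.1 and 18.1 CPM in RA-deficient PL. RA-sufficient PL was below every other library, and In/B and RA-deficient PL overlapped. Ccnd3 fell by 1.58 ± 0.29 on the log2 scale in RA-sufficient PL (edgeR adjusted p = 0.00133), was -0.15 ± 0.31 from In/B in RA-deficient PL (edgeR adjusted p = 0.752), and was higher by 1.32 ± 0.28 in RA-deficient than in RA-sufficient PL (edgeR adjusted p = 0.016). The last call was lost in 4 of 6 fits that left out a library (edgeR adjusted p of 0.0524 to 0.073), with the log2 difference between 1.14 and 1.44 throughout. Ccnd3 shares 353 bp of exon with Bysl on the other strand, at 67.2 ± 1.5 CPM in In/B, 42.8 ± 5.19 CPM in RA-sufficient PL and 53.7 ± 6.35 CPM in RA-deficient PL (SD, n = 3).

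Neither E cyclin was called in any comparison, and both had their highest mean in RA-deficient PL. Ccne1 (chromosome 7, 38883003 to 38892553, minus strand) was at 74.1, 38.2 and 33.7 CPM in In/B, 42.8, 38.4 and 43.0 CPM in RA-sufficient PL and 67.8, 71.5 and 90.0 CPM in RA-deficient PL. In/B replicate 1 was as high as the RA-deficient libraries, and the PL groups did not overlap. The log2 fold change of Ccne1 was -0.18 ± 0.29 from In/B to RA-sufficient PL (edgeR adjusted p = 0.593), 0.81 ± 0.31 from In/B to RA-deficient PL (edgeR adjusted p = 0.0755) and 0.88 ± 0.17 between the PL groups (edgeR adjusted p = 0.012), none of them called. Without In/B replicate 1 the first became 0.25 (edgeR adjusted p = 0.177) and the second became 1.26 and was called (edgeR adjusted p = 0.00543).

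Ccne2 (chromosome 4, 11118498 to 11131926, plus strand), the E cyclin whose loss is known to impair spermatogenesis, was at 86.0, 125 and 119 CPM in In/B, 102, 87.8 and 90.6 CPM in RA-sufficient PL and 203, 219 and 117 CPM in RA-deficient PL. The PL groups did not overlap, and RA-deficient replicate 3 was within the In/B range. The log2 fold change was -0.17 ± 0.15 from In/B to RA-sufficient PL (edgeR adjusted p = 0.348), 0.88 ± 0.25 from In/B to RA-deficient PL (edgeR adjusted p = 0.0262) and 0.94 ± 0.24 between the PL groups (edgeR adjusted p = 0.0311). The changes to RA-deficient PL passed the p threshold and not the fold, and without RA-deficient replicate 3 both were called, at 1.12 (edgeR adjusted p = 0.000686) and 1.18 (edgeR adjusted p = 0.000473). Ccne2 shares 609 bp of exon with the more abundant Ints8 on the other strand, which was at 203 ± 13.6 CPM in In/B, 285 ± 18.8 CPM in RA-sufficient PL and 391 ± 7.55 CPM in RA-deficient PL (SD, n = 3). How much of the Ccne2 count came from Ints8 was not tested.

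**Figure D2:**
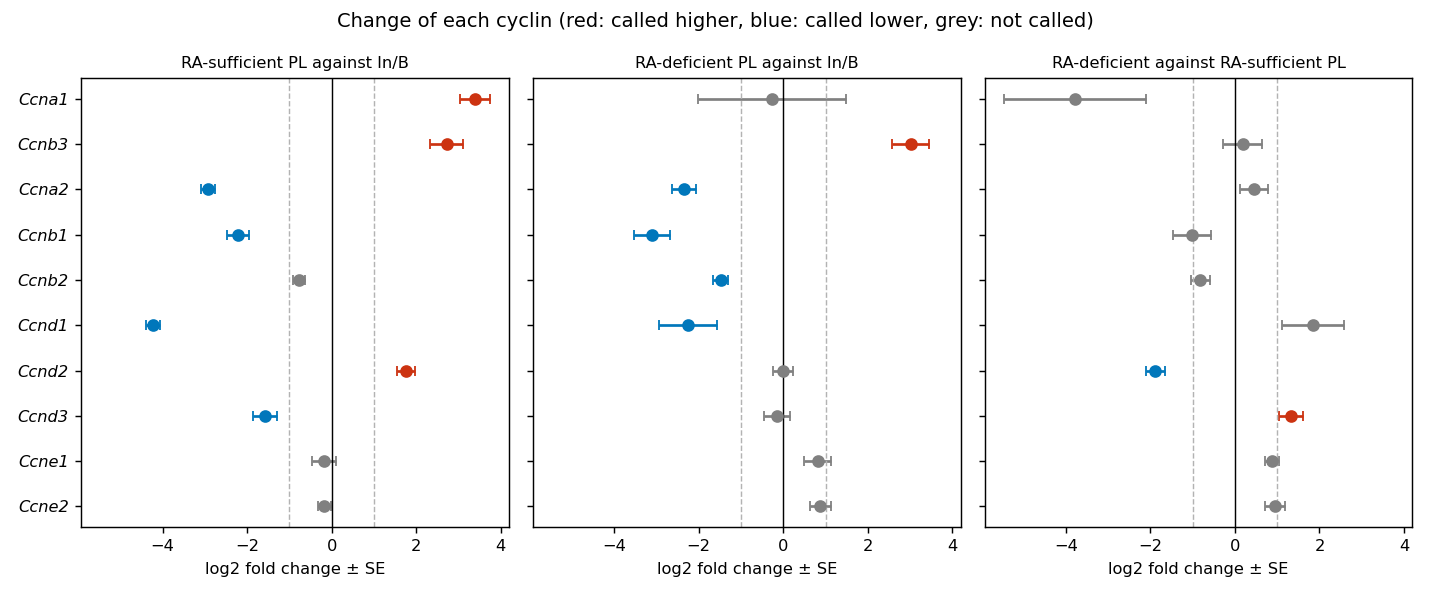
Log2 fold change ± SE of each cyclin (horizontal axis) in the 3 comparisons, from edgeR on 3 libraries per group; red and blue mark genes called higher and lower, grey those not called, and dashed lines the fold of 2 in either direction (log2 of 1) that a call required. The germline cyclins lie to the right and the mitotic A and B cyclins to the left of 0 in RA-sufficient PL against In/B, where 7 of 10 were called, against 2 of 10 between the PL groups.

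Counted over the family, 7 of 10 cyclins were called between RA-sufficient PL and In/B, 3 higher (Ccna1, Ccnb3 and Ccnd2) and 4 lower (Ccna2, Ccnb1, Ccnd1 and Ccnd3), where 45.4% of the 15001 genes tested were called, 26.1% higher and 19.3% lower. Between RA-deficient PL and In/B 5 were called, Ccnb3 higher and Ccna2, Ccnb1, Ccnb2 and Ccnd1 lower, against 23.2% of 14877 genes (11.4% higher, 11.8% lower). For RA-deficient against RA-sufficient PL 2 were called, Ccnd2 lower and Ccnd3 higher, against 15.5% of 15352 genes (4.47% higher, 11% lower). At any fold, 8, 6 and 5 cyclins had an adjusted p under 0.05 by edgeR, against 65%, 36.7% and 23.6% of genes. Groups did not overlap for 8, 5 and 6 of the 10 cyclins in these comparisons, against 71.5%, 54.6% and 47.4% of genes. Leaving out RA-deficient replicate 3 brought the calls to 7 against In/B (26.1% of 15328 genes) and 6 between the PL groups (28.4% of 15799 genes), the latter being Ccna1, Ccnb1, Ccnd1, Ccnd2, Ccnd3 and Ccne2. With any 1 of the RA-sufficient libraries left out, or RA-deficient replicate 1, a single cyclin, Ccnd2, was called between the PL groups. Taken without sign, the log2 fold changes of the 10 cyclins had medians of 1.98, 1.18 and 0.98 in the 3 comparisons, against 0.96, 0.73 and 0.62 for all genes. By class, the median log2 fold change from In/B was 3.06 in RA-sufficient PL and 1.37 in RA-deficient PL for the 2 germline cyclins, and -2.21 and -2.35 for the 3 mitotic A and B cyclins, against 0.04 and 0.00 for all genes. The fitted change of Ccna1 enters the second germline median and depends on the libraries at 0.

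The balance of germline to mitotic cyclin was also read within each library, as a log2 ratio of counts per kb of exon with 0.5 added to each count, which removes the scaling between libraries. Ccnb3 to Ccnb1 was -1.68, -0.02 and -0.08 in In/B, 3.76, 4.44 and 4.62 in RA-sufficient PL and 5.65, 5.36 and 5.59 in RA-deficient PL. The 3 groups did not overlap. Ccnb1 was at or above Ccnb3 in In/B and far below it in every PL library, with RA-deficient PL the higher. The size of the ratio depends on the length taken for Ccnb1, since with the longest coding transcript the means were -1.35, 3.51 and 4.78 in place of -0.59, 4.27 and 5.53 for In/B, RA-sufficient and RA-deficient PL. Ccnb3 to Ccnb2, a ratio that the copies of Ccnb1 do not touch, was -2.74, -1.91 and -1.90 in In/B, 0.29, 1.59 and 1.92 in RA-sufficient PL and 2.05, 1.74 and 2.90 in RA-deficient PL. It changed sign between In/B and both PL groups, which overlapped with each other.

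Ccna1 to Ccna2 was -5.86, -6.00 and -5.27 in In/B and 1.28, 0.18 and 0.32 in RA-sufficient PL. The germline A cyclin was far below Ccna2 in In/B and, per kb of exon, above it in every RA-sufficient library. With the longest coding transcript as length the RA-sufficient ratios were 1.04, -0.06 and 0.07, so Ccna1 was then near Ccna2 in replicates 2 and 3. In RA-deficient PL the ratio was -1.27 in replicate 3 and -10.83 and -10.27 in replicates 1 and 2, where Ccna1 had no count and the number rests on what was added (-8.83 and -8.27 with 2 added). All 3 RA-deficient libraries were below all RA-sufficient ones. Both B ratios were thus above their In/B range in all 6 PL libraries, and the A ratio in the 3 RA-sufficient libraries and RA-deficient replicate 3, with no test of these ratios made.

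**Figure D3:**
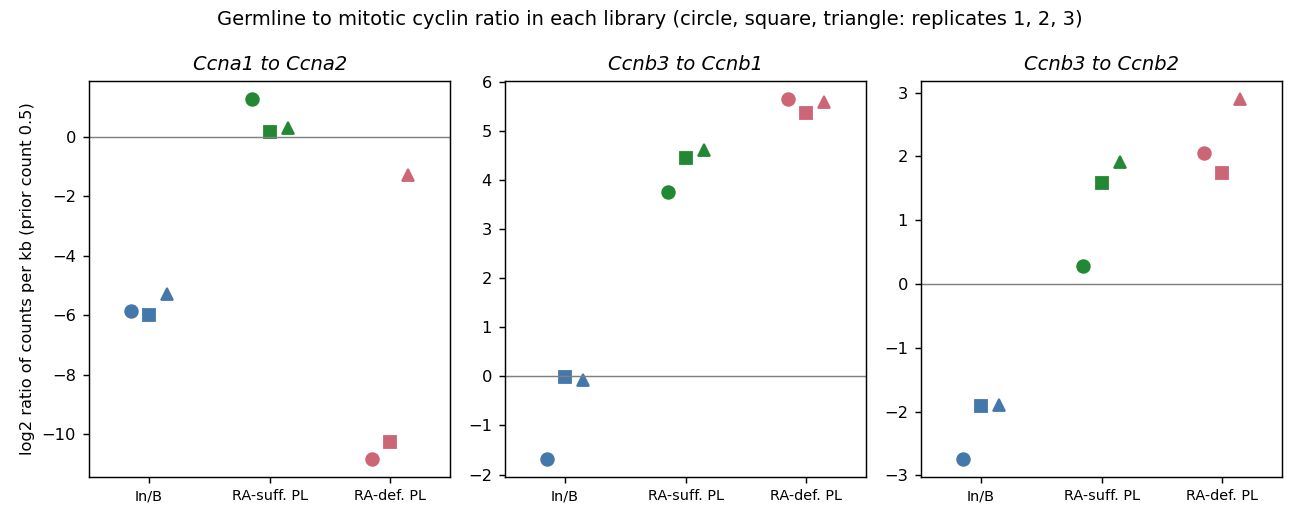
Log2 ratio of counts per kb, with 0.5 added to each count, for Ccna1 to Ccna2, Ccnb3 to Ccnb1 and Ccnb3 to Ccnb2 (vertical axes) in each library by group; symbols mark replicates 1, 2 and 3, and the line at 0 marks equal levels. Both B ratios are above 0 in all 6 PL libraries. The A ratio, taken per kb of exon as drawn, is above 0 in the 3 RA-sufficient libraries. RA-deficient replicates 1 and 2 are near -10 because Ccna1 had no count.

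The makeup of the cyclin pool was taken as each gene's share of the summed CPM per kb of the 10 cyclins. The mitotic A and B cyclins made up 49.0 ± 2.27% in In/B, 21.6 ± 2.91% in RA-sufficient PL and 15.0 ± 2.80% in RA-deficient PL (SD, n = 3 here and in the shares and levels that follow). The germline cyclins made up 2.31, 4.42 and 4.77% in In/B, 35.9, 46.8 and 49.4% in RA-sufficient PL and 23.6, 22.3 and 53.2% in RA-deficient PL. RA-deficient replicates 1 and 2 were between the other groups, and replicate 3 was the highest library. D cyclins were 30.9 ± 3.57% of the In/B pool, 10.5 ± 0.917% of the RA-sufficient and 13.2 ± 6.66% of the RA-deficient pool, and E cyclins were 16.3 ± 0.338%, 23.9 ± 4.72% and 38.8 ± 8.55%. No test was made of these shares. The summed level was 305 ± 16.4 CPM per kb in In/B, 180 ± 21.8 in RA-sufficient PL and 209 ± 18.5 in RA-deficient PL, so the mean pool was smaller in both PL groups.

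**Figure D4:**
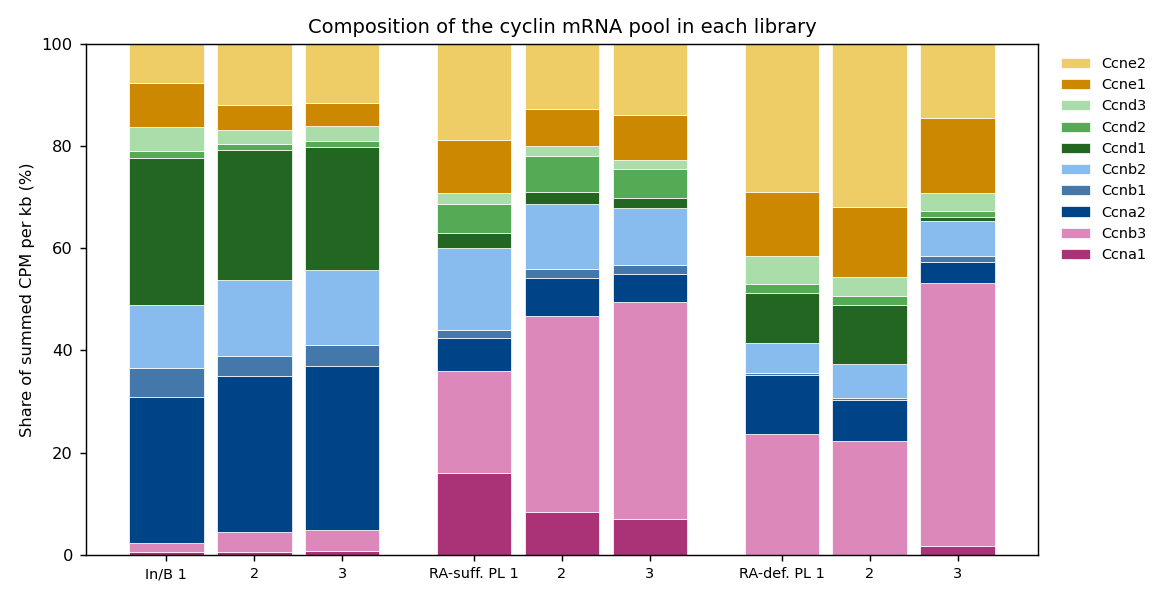
Share of each cyclin in the summed CPM per kb of the 10 cyclins (vertical axis, %) in each of the 9 libraries, with the germline cyclins at the bottom, then the mitotic A and B, D and E cyclins. The germline block grows from 2.31 to 4.77% in In/B to 22.3% or more in every PL library, and Ccna1 is visible within it in the RA-sufficient libraries and in RA-deficient replicate 3.

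The leading cyclin changed with the cell. In In/B the order by level was Ccna2 (92.6 ± 0.916 CPM per kb), Ccnd1 (80.4 ± 11.8), which overlapped with it, and then Ccnb2 (42.3 ± 2.60), with no overlap to either neighbour. Ccne2, Ccne1, Ccnb1, Ccnd3 and Ccnb3 followed, from 31.4 ± 5.94 to 9.76 ± 3.34, each overlapping with the next, and Ccnd2 (3.40 ± 0.613) and Ccna1 (1.80 ± 0.537) came last. In RA-sufficient PL Ccnb3 led with 61.9 ± 26.9 CPM per kb and did not overlap with the next gene. Ccne2, Ccnb2, Ccna1, Ccne1, Ccna2 and Ccnd2 formed a run of overlapping neighbors from 26.8 ± 2.18 to 11.1 ± 2.62, and Ccnd1 (4.13 ± 0.490), Ccnd3 (3.58 ± 0.301) and Ccnb1 (2.99 ± 0.643) were at the bottom. In RA-deficient PL the highest means were those of Ccnb3 (69.9 ± 42.1), Ccne2 (51.4 ± 15.7) and Ccne1 (28.7 ± 4.46), in which Ccne2 overlapped with each of the others and Ccnb3 and Ccne1 did not overlap. Ccnb3 came first there through replicate 3, with 119 CPM per kb against 33.4 for Ccne2, while in replicates 1 and 2 Ccne2 led with 58.1 and 62.6 against 47.5 and 43.8 for Ccnb3. Ccna2, Ccnd1 and Ccnb2 came next, from 16.2 ± 6.82 to 13.5 ± 2.22, and the last were Ccnb1 (1.49 ± 0.843) and Ccna1 (1.34 ± 2.32). The gene at the head of the order in In/B, Ccna2, was thus the sixth in RA-sufficient and the fourth in RA-deficient PL.

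For each cyclin the genes whose pattern over the 9 libraries was most alike were found among 9480 genes that averaged 10 CPM or more, as the smallest root-mean-square difference of log2 CPM after centering each gene on its own mean. The nearest to Ccna1 were Ttc29 (0.30) and Dnali1 (0.44), both of them known for axonemes, the core of cilia and flagella. Ttc29 was at 2.62 ± 0.818 CPM in In/B, 28.5 ± 15.8 CPM in RA-sufficient PL and 2.68 ± 4.57 CPM in RA-deficient PL (SD, n = 3). Nearest to Ccnb3 were Gm960 and Pet2 (0.17 each), to Ccna2 Lhx2 (0.22) and Tert (0.27), the latter the catalytic subunit of telomerase, to Ccnb1 Abhd2 (0.38) and Gm5141 (0.42), and to Ccnb2 Sdcbp (0.09) and Pitrm1 (0.15). Among the D cyclins, Ccnd1 was nearest to Emilin3 (0.26) and Runx3 (0.32), Ccnd2 to Dtna (0.21) and Phf21b (0.26), and Ccnd3 to Satb1 (0.17) and Limk1 (0.18). Ccne1 was nearest to B4galt5 and Zfp462 (0.20 each) and Ccne2 to Nup210 (0.11) and Zfp777 (0.12). Nothing is drawn from these likenesses, which share the libraries and their scaling.

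The genes around the cyclins were read from 6 lists, of CDK partners, kinases and phosphatases that act on CDKs, CDK inhibitors, cyclin degradation, E2F, RB and MuvB regulators, and other cyclins, which held 83 genes of the count table. Between RA-sufficient PL and In/B 38 of 83 were called, 6 higher and 32 lower, a share of 45.8% beside 45.4% of all genes. Between RA-deficient PL and In/B 29 of 82 tested were called, 7 higher and 22 lower (35.4%, beside 23.2% of all genes). For RA-deficient against RA-sufficient PL 8 of 83 were called, 4 in each direction (9.64%, beside 15.5%). That count was 14 without RA-deficient replicate 3, where 28.4% of all genes were called, and 4 or 5 without any other 1 of the 6 libraries. Their median log2 fold change was -0.58, -0.29 and 0.17 in the 3 comparisons, against 0.04, 0.00 and -0.09 for all genes.

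Of the 4 CDKs that the cyclins bind, Cdk1, the partner of the A and B cyclins in division, was called in all 3 comparisons. It was at 78.2 ± 10.9 CPM in In/B, 28.3 ± 2.35 CPM in RA-sufficient PL and 13.9 ± 4.49 CPM in RA-deficient PL, and its log2 fold change was -1.41 ± 0.15 and -2.32 ± 0.26 from In/B (edgeR adjusted p = 9.12e-05 and 0.000418) and -1.03 ± 0.28 from RA-sufficient to RA-deficient PL (edgeR adjusted p = 0.0372). Cdk6, a partner of D cyclins, fell in RA-sufficient PL (log2 fold change -1.57 ± 0.25, edgeR adjusted p = 0.00073), and Cdk4, the other, in RA-deficient PL (-1.20 ± 0.23, edgeR adjusted p = 0.00531). Each was short of a call in the other PL group, with -0.21 for Cdk6 in RA-deficient PL (edgeR adjusted p = 0.613) and -0.82 for Cdk4 in RA-sufficient PL (edgeR adjusted p = 0.00646). Compared directly between the PL groups, RA-deficient against RA-sufficient, neither was called. The log2 difference was 1.23 ± 0.38 for Cdk6 (edgeR adjusted p = 0.055) and -0.49 ± 0.16 for Cdk4 (edgeR adjusted p = 0.0659). Cdk2, the partner of E cyclins, was at 200 ± 3.21, 298 ± 55.9 and 187 ± 37.1 CPM in In/B, RA-sufficient and RA-deficient PL and was not called in any comparison.

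Of the 12 genes that activate or phosphorylate CDKs, 1 rose and 4 fell in RA-sufficient PL (41.7% called, beside 45.4% of all genes), and 2 rose and 2 fell in RA-deficient PL (33.3%, beside 23.2%), against In/B. Spdya, which encodes a meiotic activator of Cdk2 unrelated to cyclins in sequence, rose in both, from 6.12 ± 2.55 CPM to 126 ± 22.3 and 83.2 ± 27.6 CPM (log2 fold change 4.42 ± 0.32 and 3.93 ± 0.40, edgeR adjusted p = 1.78e-05 and 0.000283). Cks1b, a small CDK-binding subunit, fell in both (log2 fold change -2.44 ± 0.27 and -1.97 ± 0.22), and so did Cdc25c, the phosphatase that switches on Cdk1 (-1.98 ± 0.31 and -1.76 ± 0.27). Pkmyt1, a kinase that holds Cdk1 inactive, was the only call between the PL groups in the list, at 17.7 ± 0.45 CPM in RA-sufficient and 49.1 ± 9.0 CPM in RA-deficient PL (1.46 ± 0.21, edgeR adjusted p = 0.00454).

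The CDK inhibitors had no common direction, with 1 called higher and 1 lower of 7 in RA-sufficient PL (28.6%, beside 45.4% of all genes) and 1 lower of 6 in RA-deficient PL (16.7%, beside 23.2%). Cdkn1b (p27) rose from 9.45 ± 2.41 CPM in In/B to 26.4 ± 4.64 CPM in RA-sufficient PL (1.54 ± 0.26, edgeR adjusted p = 0.000907). Cdkn2a, whose products include an inhibitor of Cdk4 and Cdk6, was counted as a whole gene. It fell from 61.3 ± 6.52 CPM in In/B to 12.7 ± 5.14 CPM in RA-sufficient PL (-2.23 ± 0.28, edgeR adjusted p = 0.00019). In RA-deficient PL it was higher, at 42.9 ± 17.4 CPM (1.75 ± 0.43 against RA-sufficient PL, edgeR adjusted p = 0.0271). Cdkn1a (p21) was at 31.4 ± 11.2, 27.9 ± 15.4 and 7.69 ± 0.917 CPM in In/B, RA-sufficient and RA-deficient PL and fell in RA-deficient PL against both (-1.86 ± 0.32 and -1.88 ± 0.43, edgeR adjusted p = 0.00309 and 0.0207). Cdkn2d was near the floor, with 2, 0 and 0 counts in RA-deficient PL against 31, 11 and 19 in RA-sufficient PL, and although called lower it is given here as counts only.

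Genes of cyclin degradation were called less often than all genes in RA-sufficient PL and about as often in RA-deficient PL. Against In/B by edgeR, 7 of 22 fell and none rose in RA-sufficient PL (31.8% called, beside 45.4% of all genes). In RA-deficient PL 6 of 22 fell and none rose (27.3%, beside 23.2%). In these groups 6 and 10 of the 22 had a log2 fold change above 0. An unadjusted p under 0.05 by edgeR, in either direction, was found for 16 and 13, and DESeq2 called 7 and 6 in all. The shares of all genes under these last rules were not taken. Ube2c, the ubiquitin-conjugating enzyme of the anaphase-promoting complex, fell from 83.5 ± 16.2 to 13.0 ± 2.86 CPM in RA-sufficient PL (-2.63 ± 0.23, edgeR adjusted p = 3.26e-05) and was higher in RA-deficient PL at 30.2 ± 2.54 CPM (1.22 ± 0.24 between the PL groups, edgeR adjusted p = 0.0131). In RA-deficient PL Ube2c also fell against In/B (-1.30 ± 0.19). Cdc23, a subunit of that complex, fell in RA-sufficient and RA-deficient PL (log2 fold change -1.76 ± 0.12 and -1.44 ± 0.36), as did Skp2, which directs the destruction of Cdkn1b (-1.51 ± 0.19 and -1.48 ± 0.24). Cdc20, the activator of the complex at anaphase, fell in both as well (-1.40 ± 0.13 and -1.68 ± 0.28). Its subunit Cdc26 was called in RA-deficient PL (-1.63 ± 0.46), with a log2 fold change of -0.24 ± 0.30 in RA-sufficient PL. Between the PL groups Cdc26 was not called (-1.51 ± 0.46, edgeR adjusted p = 0.0531).

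In the E2F, RB and MuvB list 11 of 20 fell and 3 rose in RA-sufficient PL (70% called, beside 45.4% of all genes, with a list median of log2 fold change of -1.25), and 7 fell and 2 rose in RA-deficient PL (45%, beside 23.2%, with a list median of -0.75). E2f2 (99.9 ± 21.7 to 5.51 ± 2.57 CPM), E2f7 (133 ± 17.3 to 10.0 ± 2.58 CPM) and Mybl2 (86.6 ± 3.65 to 15.0 ± 3.05 CPM) had the largest falls in RA-sufficient PL, at -4.14 ± 0.33, -3.67 ± 0.22 and -2.47 ± 0.18 (edgeR adjusted p = 2.39e-05, 1.1e-05 and 1.74e-05). E2f2 encodes an activating E2F, E2f7 a repressing one, and Mybl2 the B-Myb factor that joins MuvB before mitosis. In RA-deficient PL E2f7 and Mybl2 also fell (-2.46 ± 0.17 and -1.40 ± 0.40), and E2f2 was not called (-1.92 ± 0.83, edgeR adjusted p = 0.111). Nor was E2f2 called between the PL groups (2.08 ± 0.97, edgeR adjusted p = 0.162). E2f8 and E2f3 fell in both groups, with log2 fold changes of -1.89 ± 0.23 and -2.34 ± 0.15 in RA-sufficient PL and -1.96 ± 0.32 and -1.76 ± 0.31 in RA-deficient PL. E2f7 was higher by 1.10 ± 0.28 in RA-deficient than in RA-sufficient PL (edgeR adjusted p = 0.0296), and Rbl2 (p130), a relative of the retinoblastoma protein, was at 7.05 ± 2.38 CPM in In/B, 36.8 ± 9.16 CPM in RA-sufficient PL and 5.90 ± 2.71 CPM in RA-deficient PL (-2.66 ± 0.41 between the PL groups, edgeR adjusted p = 0.00559).

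**Figure D5:**
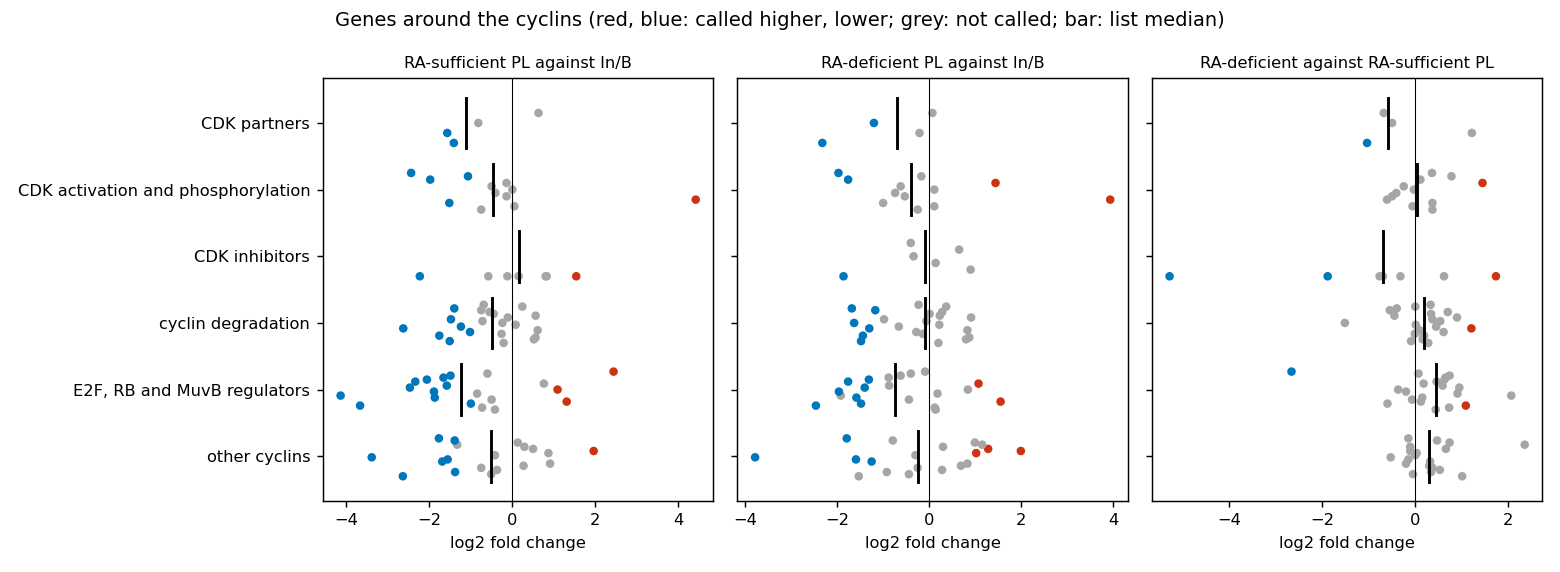
Log2 fold change (horizontal axis) of each gene in the 6 lists around the cyclins, in the 3 comparisons, by edgeR on 3 libraries per group; red and blue mark genes called higher and lower, grey those not called, and the black bar the list median. The E2F, RB and MuvB list has medians of -1.25 and -0.75 against In/B, and the farthest point on the left between the PL groups is Cdkn2d, which was near the floor.

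Of 19 other cyclins in the table, 1 rose and 7 fell in RA-sufficient PL (42.1% called, beside 45.4% of all genes) and 3 rose and 4 fell in RA-deficient PL (36.8%, beside 23.2%), against In/B. Ccng1, a target of p53, fell from 178 ± 31.7 CPM to 16.4 ± 3.48 and 11.5 ± 2.05 CPM (log2 fold change -3.39 ± 0.20 and -3.78 ± 0.21, edgeR adjusted p = 1.1e-05 and 3.85e-05). Cntd1, a cyclin-like gene needed for meiotic crossovers, rose from 14.7 ± 6.18 CPM to 55.2 ± 13.4 and 51.9 ± 6.31 CPM (1.96 ± 0.33 and 1.99 ± 0.33, edgeR adjusted p = 0.000908 and 0.00257). Cables1, a gene for a CDK-binding protein with a cyclin-like region, fell in RA-sufficient PL (-2.64 ± 0.57) and was not called in RA-deficient PL (-1.53 ± 0.65), and Ccnj fell in both (-1.77 ± 0.20 and -1.79 ± 0.25). Comparing the PL groups, edgeR called 0 of the 19, with 3 at an unadjusted p under 0.05, and DESeq2 called 1.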

How the data were processed

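mRNA was measured by RNA-seq in 9 libraries, 3 each of In/B spermatogonia, RA-sufficient PL and RA-deficient PL spermatocytes. The values deposited by the authors are raw counts, 1 table for the series. Per the labels and the study's methods, the libraries were stranded and poly(A)-selected, and the single-end reads went through cutadapt 1.9 for trimming, STAR 2.5.2b for alignment to mm9 and featureCounts for counting. The annotation and the strand setting of the counting are not given in the sources used here. All 9 columns were matched to a group and replicate by name, and 0 were left unused. The 10 cyclins and the gene lists were chosen with earlier results of these data known.

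Each pair of groups was fitted on the whole table with edgeR 4.0.16 in R 4.3.3 (TMM scaling, filterByExpr, quasi-likelihood test, Benjamini-Hochberg adjustment over all genes), and only the rows described are printed. SE is the absolute log2 fold change over the root of F. The tests were tested on simulated data with 200 changed genes. CPM came from TMM scaling over all 9 libraries. Exon lengths and coordinates are from GENCODE M1 on mm9, and promoters from RefSeq on GRCm38.p6. In each list and comparison, up to 3 genes were named, those of largest change among genes called with no overlap between groups. Cdk2 falls outside this rule and was chosen after its value was seen. The 2 genes nearest to each cyclin were named with no further choice, and markers only beside a cyclin. Alternatives were RLE scaling, library size only, other low-count filters, all 9 libraries in a single fit, a replicate block, other thresholds, DESeq2 1.42.0 and the omission of each library in turn. Plots used matplotlib 3.10.9 (Python 3.11.15). Depth is given as total counts and as the CPM that 3 counts are worth.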

Additional observations from a re-analysis of the deposited data

Results flagged for a closer look

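The changes of Ccnd2 and Ccnd3 from In/B differed between the PL groups by the direct comparison of RA-deficient with RA-sufficient PL (quasi-likelihood test of edgeR, Benjamini-Hochberg adjusted), with log2 differences of -1.88 for Ccnd2 and 1.32 for Ccnd3. Among the genes around the cyclins, the same comparison gave -1.03 for Cdk1, 1.46 for Pkmyt1, -1.88 for Cdkn1a, 1.75 for Cdkn2a, 1.22 for Ube2c, 1.10 for E2f7 and -2.66 for Rbl2. The PL groups did not overlap for any of these 9 genes, beside 47.4% of all genes. For the genes around the cyclins this was set in advance, since the naming rule required a call without overlap. The Ccnd3 call was lost in 4 of 6 fits that left out a library. Of the 83 genes around the cyclins 8 were called in this comparison, and 4 to 14 when single libraries were left out.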

How the results depend on the processing

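Of the 30 log2 fold changes (10 cyclins in 3 comparisons), all kept their direction and whether they were called with RLE scaling and without a low-count filter. The same held with the replicate number as a block, which took Ccnb2 between the PL groups, not called in either fit, from an edgeR adjusted p of 0.0355 to 0.0846. The block also moved the size of the Ccna1 changes, which were not called and were fitted to libraries at 0. Against In/B the RA-deficient change of Ccna1 went from -0.27 to -4.23, and between the PL groups it went from -3.78 to -6.89. Same-numbered libraries did not deviate together (correlations of -0.289 to 0.239), so the numbers are not treated as pairs. Under the replicate block 7, 5 and 2 cyclins and 38, 28 and 6 of the genes around them were called. The share of all genes called under the block was not taken. Scaling by library size alone moved the median of all genes to -0.31 and -0.27 in the comparisons of RA-deficient PL with In/B and RA-sufficient PL, brought Ccnb3 between the PL groups to -0.01 and called Ccnb2 there (-1.0, adjusted p = 0.0183), both moved by about the shift that the genes as a whole shared. A filter at a mean of 50 counts turned Ccnd2 in RA-deficient PL against In/B to 0.01. With all 9 libraries in a single edgeR fit the rise of Ccna1 in RA-sufficient PL was not called (adjusted p = 0.0724), and Ccnd1 was called between the PL groups (1.88, adjusted p = 0.0435), as by DESeq2 (1.83, adjusted p = 0.0141). DESeq2 gave no adjusted p for Ccna1 in RA-deficient PL against In/B.

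Leaving out single libraries gave ranges that crossed 0 for Ccne1 in RA-sufficient PL against In/B (-0.40 to 0.25), for Ccna1 (-8.92 to 0.26, the lower end fitted to libraries at 0 and no measure of fold), Ccnd2 (-0.11 to 0.15, with 0.09 without RA-deficient replicate 3) and Ccnd3 (-0.37 to 0.19) in RA-deficient PL against In/B, and likewise for Ccnb3 between the PL groups (-0.43 to 0.44, with -0.13 without RA-sufficient replicate 1). None was called with its sign turned. Cyclins called ranged from 7 to 7, 4 to 7 and 1 to 6, and genes around them from 36 to 39, 27 to 34 and 4 to 14, in the order of the comparisons above. The last ranges reached 6 and 14 without RA-deficient replicate 3, and 1 and 4 or 5 without RA-deficient replicate 1 or any 1 of the RA-sufficient libraries. At an adjusted p of 0.01 between the PL groups 1 cyclin and 2 other genes were called, and the share of all genes was not taken. By adjusted p alone 5 of 10 cyclins and 19 of 83 genes around them passed there, beside 23.6% of all genes. Against In/B 62 of 83 genes around the cyclins passed by adjusted p alone in RA-sufficient PL, beside 65% of all genes. In RA-deficient PL 46 of 82 passed, beside 36.7%. With the longest coding transcript as length, chosen after seeing the data, the mean log2 ratio of Ccnb3 to Ccnb1 was -1.35, 3.51 and 4.78 in In/B, RA-sufficient and RA-deficient PL in place of -0.59, 4.27 and 5.53. By the same length the mean ratio of Ccna1 to Ccna2 in RA-sufficient PL was 0.35 in place of 0.59. The causes were not tested. Ccna1 in RA-deficient PL and Cdkn2d are the values that depth limits.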
